A study of Mus musculus with 27 samples.

Results

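The expression of 36 genes that are characteristic of T cells and natural killer (NK) cells, Themis among them, was examined in the livers of 28-month-old mice kept on 4 dietary regimens. The genes were taken by symbol from the deposited log2 table, using transcript clusters (the array's unit of measurement for a gene) that carry a single symbol and, for a gene with several of these, the one with the highest mean. Of the 36 genes, 35 had such a cluster; Lck was not analysed here. Ctla4 did not pass the filter on low values, so that 34 of the 36 were tested among 13993 genes tested, from 18820 genes with a single-symbol cluster. All mice were male C57BL/6J mice that differed only in diet by their labels. The control group (C, n = 8) ate the AIN-93W diet ad libitum. The CR group (n = 5) received daily portions of AIN-93W-CR with 30% less energy than the controls consumed, and the MF group (n = 7) ate the medium-fat diet AIN-93W-MF, with 25% of its energy as fat, ad libitum. The CR-MF group (n = 7) was restricted until 24 months of age and was then given the MF diet for 4 months, with the amount increased stepwise at first. Before sacrifice all mice were fasted and received a gavage of the solvent carboxymethyl cellulose, and the CR mice, unlike the others, were given part of their portion shortly before the fast. The part of this last meal in differences from CR was not tested.

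T cells recognise antigen through the T cell receptor, whose signal is carried into the cell by the CD3 chains, is helped by the coreceptors CD4 and CD8, and passes through the kinases Lck and Zap70. Themis is an adaptor protein of the T lineage that binds Grb2 and the phosphatase Shp1 near the receptor, and it is known above all for its role in the maturation of T cells in the thymus. NK cells lack this receptor and use receptors such as those encoded by Klrk1 and Klrd1, but share granzymes and perforin with cytotoxic T cells, and the liver is known to hold many cells of both kinds.

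Each liver was measured on 1 Affymetrix Mouse Gene 1.1 ST array, and each mouse is a biological replicate. Median log2 intensity per array lay between 5.38 and 5.48, and arrays correlated with each other at 0.975 to 0.991. The hepatocyte genes Alb and Apoa1, which encode albumin and an apolipoprotein, had mean log2 levels between 13.4 and 13.6 in every group, as the tissue label implies. The array names carry codes that were read here as 3 plates and as well rows, which the labels do not state. Plate G150 holds 6 C, 3 CR, 5 CR-MF and 5 MF mice. Row F holds all 8 C mice and 3 CR mice, and row G holds all 7 MF mice and 2 CR mice, so that no row holds both C and MF mice. Row H holds all 7 CR-MF mice and no others, so that the CR-MF group and this row cannot be told apart in any comparison.

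The sequences upstream of Themis and of 2 CD3 genes are shown because, as described below, Cd3e and Cd3g varied together from mouse to mouse whereas Themis correlated weakly with them. They are RefSeq sequences of build GRCm38.p6, written 5′ to 3′ on the strand of the gene and ending at the base before the annotated gene. Themis (chr10:28668110-28668359, plus strand) and Cd3g (chr9:44980432-44980681, minus strand) are shown over 250 bases and Cd3e (chr9:45009664-45009861, minus strand) over 198 bases. Capitals mark matches, on either strand, of 3 fixed strings of letters. The letters AGGAAG are 1 longer form of the motif of ETS family transcription factors. Those of the GATA family, which holds regulators of T cell development, bind the letters AGATAA. The RUNX family, which also works in developing T cells, was searched with its motif TGTGGT.
Themis: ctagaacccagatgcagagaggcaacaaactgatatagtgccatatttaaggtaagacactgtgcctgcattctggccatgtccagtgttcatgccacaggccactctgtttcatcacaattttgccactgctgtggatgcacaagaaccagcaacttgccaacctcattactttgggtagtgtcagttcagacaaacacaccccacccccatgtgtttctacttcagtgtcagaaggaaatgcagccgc
Cd3e: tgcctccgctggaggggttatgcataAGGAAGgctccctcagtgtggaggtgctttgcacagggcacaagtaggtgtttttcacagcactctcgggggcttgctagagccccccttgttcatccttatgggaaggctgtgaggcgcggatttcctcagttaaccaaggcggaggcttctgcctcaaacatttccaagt
Cd3g: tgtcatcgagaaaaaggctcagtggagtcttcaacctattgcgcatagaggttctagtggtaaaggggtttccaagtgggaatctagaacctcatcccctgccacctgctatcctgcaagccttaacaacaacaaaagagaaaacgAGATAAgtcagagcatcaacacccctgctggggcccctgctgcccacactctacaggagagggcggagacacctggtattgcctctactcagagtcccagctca
The Themis window held no match of these letters, nor did a second RefSeq window of this gene, which shares 215 bases with it. The Cd3e stretch held 1 ETS match and the Cd3g window held 1 GATA match. The shorter ETS core GGAA was not searched and does occur in the Themis window, so that this contrast depends on the letters chosen. RefSeq windows were at hand for 25 of the 36 genes (29 windows of 250 bases). A RUNX match was found in 10 of these 29 windows (34.5%) and in 14% of 32851 windows of all genes, and an ETS match in 15 (51.7%) against 29.5%. A GATA match was in 2 (6.9%) against 9.99%. These are descriptions of letters in short windows and not of binding.

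Of the 34 genes tested, Themis had the largest MF minus CR and C minus CR differences. On the log2 intensity scale, the 5 CR mice had Themis levels of 4.35, 4.69, 4.76, 4.76 and 5.73. In the 7 MF mice the lowest, median and highest levels were 5.79, 6.80 and 7.22, and in the 8 C mice they were 5.27, 6.24 and 6.64. The CR and MF mice did not overlap, by a narrow gap from 5.73 to 5.79. The share of all genes that separate in this way was not counted. The highest CR mouse, B4_5, lay above the lowest C mice. In the 7 CR-MF mice the lowest, median and highest levels were 5.11, 5.33 and 6.45. Of the CR-MF mice, 3 (at 6.10, 6.30 and 6.45) lay above all CR mice and 4 lay below the highest CR mouse. Group means (± SD) were 4.86 ± 0.52 in CR, 5.67 ± 0.58 in CR-MF, 6.11 ± 0.45 in C and 6.71 ± 0.47 in MF.

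The CR livers held less Themis RNA signal than the MF livers, by 3.61-fold (log2 MF minus CR difference 1.85, SE 0.28, limma adjusted p = 0.000685), and less than the C livers, by 2.38-fold (1.25, SE 0.27, adjusted p = 0.0216). The switched mice lay on average below the lifelong MF mice, with a CR-MF minus MF difference of -1.04 (2.05-fold, SE 0.25, adjusted p = 0.0344). The other pairs of groups did not pass the test. The difference between CR-MF and CR was 0.82 (SE 0.28, adjusted p = 0.188), that between MF and C was 0.60 (SE 0.25, adjusted p = 1.00, unadjusted p = 0.0215 by limma) and that between CR-MF and C was -0.44 (SE 0.25, adjusted p = 0.514). Within plates G150, G151 and G152 the MF minus CR difference was 1.59, 2.05 and 2.54, the C minus CR difference was 1.07, 1.67 and 1.29, and the CR-MF minus MF difference was -1.22, -0.71 and -0.44, where G151 and G152 hold 1 mouse per group. The MF minus CR call was kept without any single mouse. The C minus CR call was lost without the CR mouse B4_1, B4_13 or B4_3 (1.13 to 1.23, limma adjusted p = 0.0506 to 0.0832), and the CR-MF minus MF call was lost without any 1 of the MF mice C4_5, C4_7, C4_9 and C4_15 and the CR-MF mice BC4_1, BC4_5, BC4_13 and BC4_15 (-1.02 to -0.94, adjusted p = 0.0582 to 0.0914). The C minus CR call was also lost with well row or animal number as a block and on plate G150 alone (limma adjusted p = 0.115, 0.108 and 0.119), and the CR-MF minus MF call with the animal number block, on plate G150 alone and in the fit on these 2 groups (adjusted p = 0.0911, 0.0587 and 0.0793). Since whole liver was measured, fewer cells that express Themis and less Themis RNA per cell cannot be told apart.

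**Figure D1:**
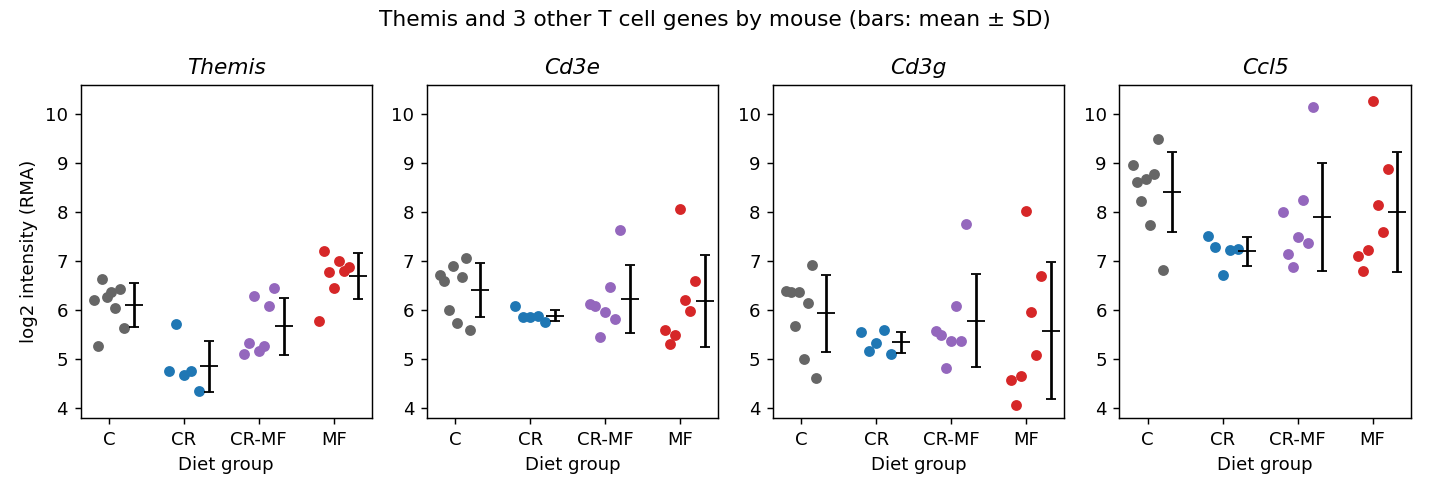
Log2 intensity (y axis) of Themis, Cd3e, Cd3g and Ccl5 in each mouse (points) of the diet groups C, CR, CR-MF and MF, with bars for the mean ± SD. For Themis all CR mice lay below the MF mice, by a narrow gap. For the 3 other genes the MF and CR-MF groups spread over a wide range, topped by 1 mouse in each, and the CR mice lay close together.

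No other T or NK cell gene passed the test in any of the 6 pairs of groups. Between MF and CR, Themis was the 1 gene called among the 34, beside 5.42% of all genes tested. At an unadjusted p of 0.05 the count was 5, all with higher means in MF, beside 23.7% of all genes in either direction and 12.5% with higher means in MF. Between C and CR, Themis was again the 1 gene called, beside 1.57% of all genes. The unadjusted threshold was passed by 7, all with higher means in C, beside 19.8% of all genes in either direction and 10.5% with higher means in C. In the CR-MF minus MF comparison, Themis was the 1 gene called, beside 1.44% of all genes, and also the 1 gene at the unadjusted threshold, beside 14.8%. In the CR-MF minus CR comparison the count was 0 (0.6% of all genes), with 4 genes at the unadjusted threshold (12.3% of all genes). Between MF and C it was 0 (0% of all genes), with 2 genes at the unadjusted threshold (3.97%), and between CR-MF and C it was 0 (0.3% of all genes), with 0 at the unadjusted threshold (11.4%).

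The direction of the small differences was nonetheless largely shared. The lowest of the 4 group means was that of CR for 30 of the 34 genes, beside 32.1% of all genes tested, and the highest was that of C for 20 of them, beside 16.6%, and that of MF for 11, beside 25.7%. The median difference over the 34 genes was 0.47 for C minus CR, 0.35 for MF minus CR, 0.30 for CR-MF minus CR and -0.09 for CR-MF minus MF on the log2 scale, where the median over all genes tested was -0.0159, -0.00683, -0.000916 and -0.00192. Because these genes vary together, they do not count as separate observations. Without the mice C4_11 and BC4_11, which had the highest levels of many of these genes, CR had the lowest mean for 24 of the 34 genes, beside 29.6% of all genes. The median differences from CR were then 0.16 for MF and 0.11 for CR-MF, while that for C, which has neither mouse, was 0.47 as before.

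**Figure D2:**
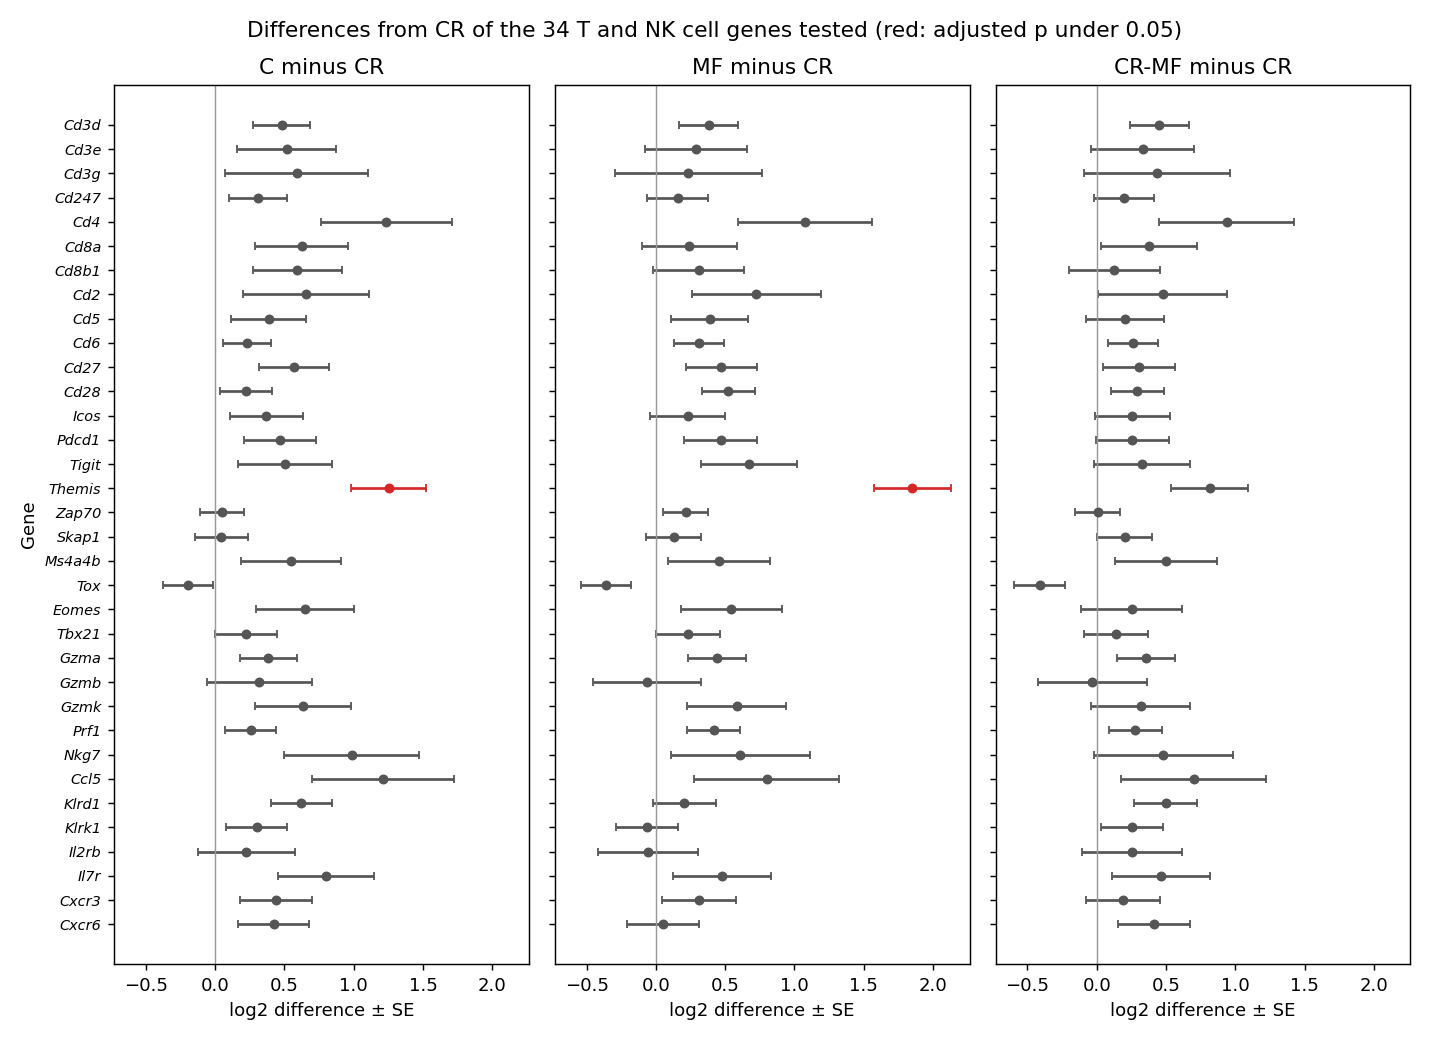
Log2 difference ± SE from the CR mean (x axis) for each of the 34 genes tested (y axis), for C, MF and CR-MF, with differences at an adjusted p under 0.05 in red. Themis was called in C and MF, most other genes lay to the right of 0, and Tox lay to the left in all 3 panels.

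The CD3 chains carry the signal of the T cell receptor. For Cd3e, the CR mice had log2 levels of 5.76, 5.87, 5.87, 5.88 and 6.09, and the lowest, median and highest levels were 5.59, 6.63 and 7.07 in C, 5.47, 6.08 and 7.64 in CR-MF, and 5.32, 5.99 and 8.06 in MF. The CR mice lay within the range of each other group, and the differences from CR were 0.52 for C (SE 0.36, limma adjusted p = 0.440) and 0.29 for MF (SE 0.37, adjusted p = 0.673). Cd3g had the widest spread of the chains, from 4.07 to 8.03 in MF. Its differences from CR were 0.59 for C and 0.23 for MF, with adjusted p = 0.559 and 0.827. Those of Cd3d were 0.48 and 0.38 (adjusted p = 0.190 and 0.277), and those of Cd247, the zeta chain, 0.31 and 0.16 (adjusted p = 0.431 and 0.702). Cd3d was a dim gene, above the log2 level of 4.32 that the filter uses in 0 of 5 CR mice and 4 of 8 C mice. Ms4a4b, Eomes, Gzma and Klrd1 were likewise above it in 0 of 5 CR mice.

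Among the coreceptors, Cd4, found on helper T cells and in the mouse also on some other cells, had the largest MF minus CR and C minus CR differences after Themis, and the largest CR-MF minus CR difference of the 34 genes. Its levels in the CR mice were 4.61, 4.91, 5.02, 5.21 and 5.26. The lowest, median and highest were 4.85, 6.42 and 7.31 in C, 5.08, 5.87 and 7.11 in CR-MF, and 4.66, 5.85 and 8.21 in MF. The means differed from CR by 1.24 in C (SE 0.47, limma adjusted p = 0.144), by 1.08 in MF (SE 0.49, adjusted p = 0.176) and by 0.94 in CR-MF (SE 0.49, adjusted p = 0.443), and the groups overlapped. Cd8a and Cd8b1, which encode the chains of CD8 on cytotoxic T cells, differed between C and CR by 0.63 and 0.59 and between MF and CR by 0.24 and 0.31, with adjusted p from 0.301 to 0.713.

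The adhesion receptor Cd2 and the receptors Cd5 and Cd6, which tune the response of T cells, differed between MF and CR by 0.72, 0.39 and 0.31 (limma adjusted p = 0.352, 0.414 and 0.295). Of the costimulatory receptors, Cd28 had levels of 4.40, 4.53, 4.53, 4.56 and 4.69 in the CR mice. All lay below the 7 MF mice (lowest 4.76, median 4.94, highest 6.04), but the share of all genes that separate in this way was not counted. The MF minus CR difference of Cd28 was 0.52 (SE 0.19, adjusted p = 0.103). Cd27, another costimulatory receptor, had C minus CR and MF minus CR differences of 0.57 and 0.47 (adjusted p = 0.199 and 0.266), and Icos had 0.37 and 0.23. Among the inhibitory receptors, Tigit and Pdcd1, which encodes PD-1, had MF minus CR differences of 0.67 and 0.47 (adjusted p = 0.237 and 0.286). Ctla4, another of these, had group means from 3.87 to 4.22 and was not tested.

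Of the other signalling proteins near the receptor, the kinase gene Zap70 and the adaptor gene Skap1 had small differences between diets. Zap70 had group means from 5.69 to 5.90 and an MF minus CR difference of 0.21 (SE 0.16, limma adjusted p = 0.433), and Skap1 one of 0.13 (SE 0.20, adjusted p = 0.734). Ms4a4b, a surface protein of T cells, had a difference of 0.46 (SE 0.37, adjusted p = 0.476). Thus the 1.85 of Themis stood beside 0.13 to 0.21 for the signalling genes tested with it.

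Among the transcription factors, Eomes and Tbx21, which direct cytotoxic cells, differed between MF and CR by 0.54 and 0.23 (limma adjusted p = 0.369 and 0.576). Tox, a factor of developing and exhausted T cells, ran the other way. Its mean over all mice was 8.18, the highest of the 34 genes tested, against 6.21 for Cd3e. Among mice of the same diet it correlated weakly with Cd3e (Pearson r 0.17). Which cells of the liver gave the Tox signal was not tested. The CR mice had Tox levels of 8.21, 8.35, 8.41, 8.52 and 8.69, the CR-MF mice had a lowest, median and highest of 7.77, 7.87 and 8.37, and the MF mice of 6.99, 8.21 and 8.73. Tox had its highest mean in CR. The MF mean differed from it by -0.36 (SE 0.18, limma adjusted p = 0.232) and the CR-MF mean by -0.41 (SE 0.18, adjusted p = 0.346), differences that were not past the threshold.

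The cytotoxic effectors include the granzyme genes, Prf1 (perforin), Nkg7 (a granule protein) and Ccl5 (a chemokine of cytotoxic cells). Ccl5 had levels of 6.72, 7.24, 7.26, 7.29 and 7.52 in CR, and a lowest, median and highest of 6.82, 8.65 and 9.49 in C, 6.89, 7.50 and 10.14 in CR-MF and 6.80, 7.60 and 10.28 in MF. The C mice exceeded all CR mice in 7 of 8 cases, and the C minus CR difference was 1.21 (SE 0.51, limma adjusted p = 0.183). In the fit without C4_11 and BC4_11, neither of which is in these 2 groups, its adjusted p was 0.0466. Nkg7 followed with a C minus CR difference of 0.99 (SE 0.49, adjusted p = 0.262) and an MF minus CR difference of 0.61 (adjusted p = 0.482). Gzma, Gzmk and Prf1 differed between MF and CR by 0.44, 0.58 and 0.42 (adjusted p = 0.204, 0.327 and 0.184), and Gzmb by -0.07 (adjusted p = 0.938).

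The NK receptor genes Klrd1 and Klrk1, which encode CD94 and NKG2D, had their lowest means in CR and in MF, respectively. The C minus CR difference of Klrd1 was 0.62 (SE 0.22, limma adjusted p = 0.117) and its MF minus C difference -0.41 (SE 0.20, adjusted p = 1.00). Klrk1 differed from CR by 0.30 in C and -0.06 in MF (adjusted p = 0.469 and 0.892). Klrd1 was above the log2 level of 4.32 in 6 of 8 C, 0 of 5 CR, 2 of 7 CR-MF and 1 of 7 MF mice. The cytokine receptor gene Il7r, needed by resting T cells, had a C minus CR difference of 0.80 (SE 0.35, adjusted p = 0.193), and Il2rb, a receptor chain for interleukins 2 and 15, one of 0.23 (adjusted p = 0.765). The chemokine receptors Cxcr3 and Cxcr6, by which T cells home to inflamed liver, had C minus CR differences of 0.44 and 0.42 (adjusted p = 0.351 and 0.362).

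The spread within groups was led by single mice. For each mouse, the deviation of a gene from its mean over all mice was taken, and the median over the 33 genes other than Themis was formed. This median was 1.20 in the MF mouse C4_11 and 1.10 in the CR-MF mouse BC4_11, and between -0.51 and 0.55 in the 25 other mice. C4_11 had the highest level of all mice for 19 of the 33 genes and BC4_11 for 9. In the 5 CR mice the median deviation lay between -0.35 and -0.26, a range much narrower than that of C (-0.45 to 0.55).

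The same 2 mice differed in the genes of other cells, not only immune cells. The summed linear intensity of 10 B and plasma cell markers was 5586 in C4_11, the highest of all mice, against a median of 542 in MF and 466 in CR. In BC4_11 it was 597, within the range of the other CR-MF mice (389 to 813). BC4_11 instead had the highest sums of its group for 8 Kupffer cell markers (12392 against a group median of 5322), 6 recruited macrophage markers (5394 against 1672) and 4 platelet markers (1055 against 337). It was also highest of its group for dendritic cell (504), sinusoidal endothelium (4879) and stellate cell (2851) markers. It was not for neutrophil, cholangiocyte and hepatocyte markers, and was lowest for adipocyte markers (72) and further T cell genes (1374). C4_11 had the lowest MF sums for endothelium (3289) and stellate cell (2027) markers. The part of these cells in the levels of C4_11 and BC4_11 was not tested. Themis was at 6.45 in both mice. This lay within the range of the other MF mice for C4_11 (5.79 to 7.22) but was the highest level of the CR-MF group for BC4_11, where the others lay between 5.11 and 6.30.

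**Figure D3:**
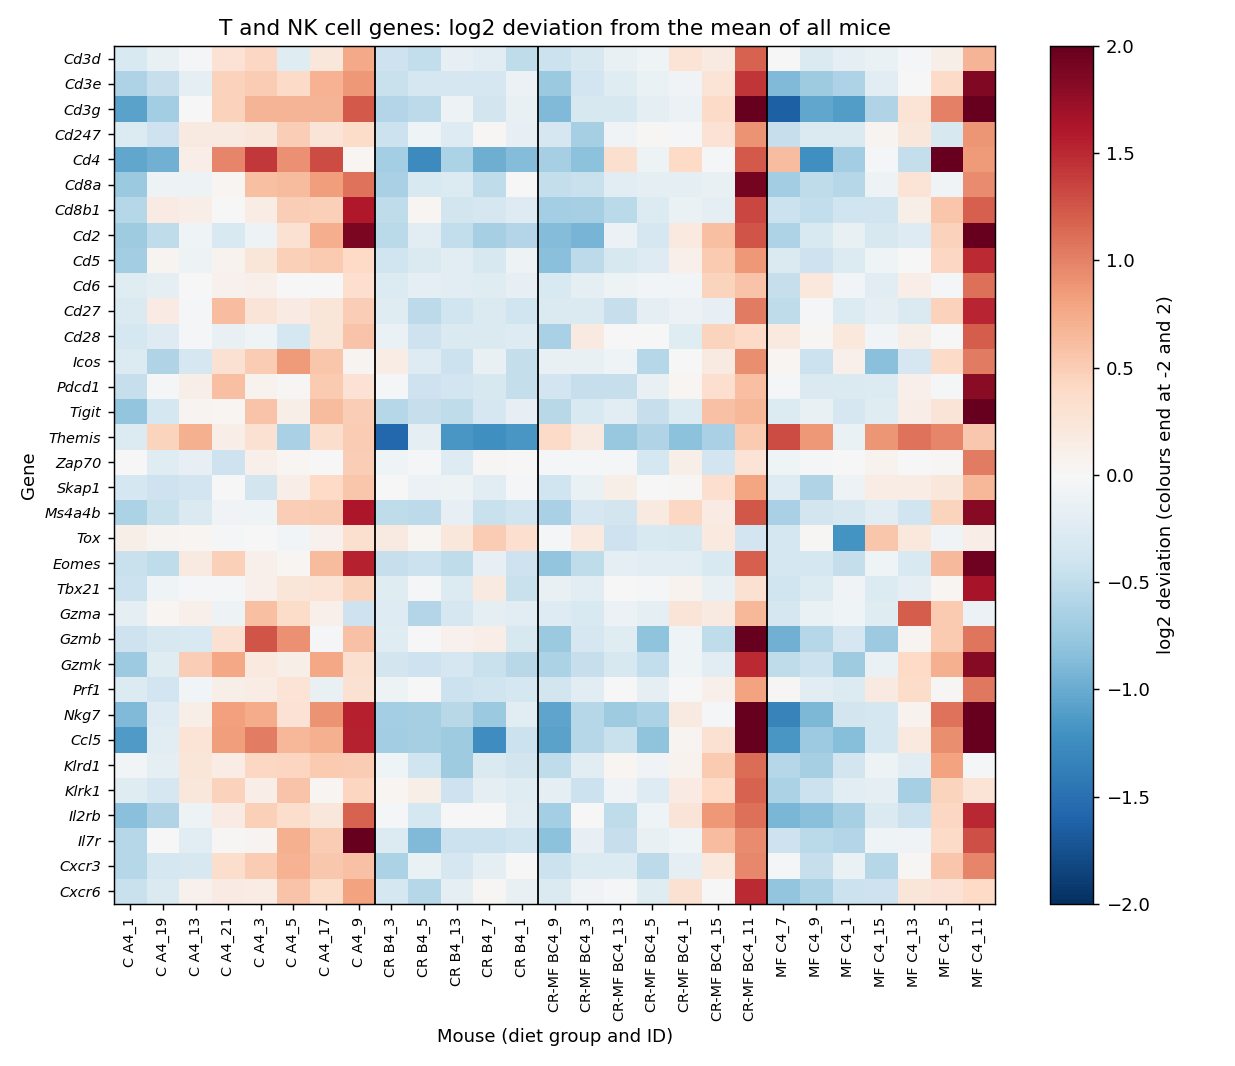
Log2 deviation of each of the 34 genes (y axis) from its mean over all mice, for each mouse (x axis), by diet group and, within a group, in order of the T and NK cell genes. Columns change colour together for nearly all genes, most in C4_11 and BC4_11, whereas the Themis row is blue in CR and red in 6 of the 7 MF mice and breaks with the columns, as in C4_7.

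Themis correlated weakly with the other genes of the list among mice of the same diet. With group means removed, the Pearson correlation of Themis with the 33 other genes over 27 mice ranged from -0.13 to 0.29, with a median of 0.05, where the median over all genes tested was 0.03. The correlation of Cd3e with the 32 genes that remain ranged from 0.17 to 0.98, with a median of 0.86, and was above 0.7 for 28 of them. Without C4_11 and BC4_11 it had a median of 0.76 and was above 0.7 for 18, and that of Themis had a median of -0.05. The arrays, the livers and the scaling are shared by all these correlations, which describe these mice.

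The genes most like Cd3e by this measure were Cd3g (0.98), Ccl5 (0.96), Nkg7 (0.96), Akna (0.94), Sh2d2a (0.94), Stat4 (0.94), Slamf6 (0.93) and Cd5 (0.93). Those most like Themis were Ap3s2 (0.70), Get3 (0.70), Copa (0.67), Gpr89 (0.66), Cars2 (0.65), Rars (0.64), Tars2 (0.64) and Capns1 (0.64). None of the latter is a member of the list, their correlations with Cd3e lay between -0.26 and 0.04, and none was called between MF and CR. Themis was the gene of the list least like Cd3e (0.05), followed by Tox (0.17) and Gzma (0.33).

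**Figure D4:**
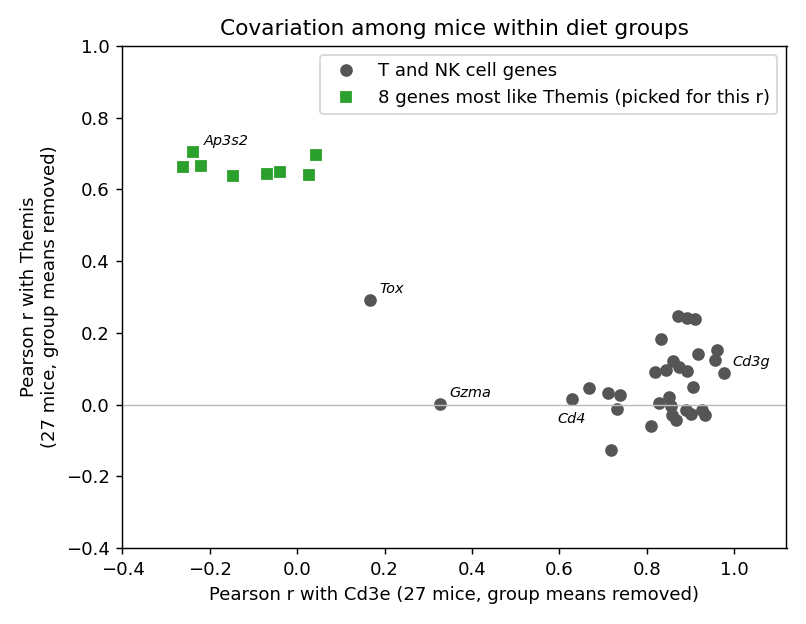
Pearson correlation with Cd3e (x axis) and with Themis (y axis) over 27 mice with group means removed, for 32 T and NK cell genes (circles) and the 8 genes with the highest correlation with Themis among all genes tested (squares). The T and NK cell genes lie to the right and near 0 for Themis, and the squares, chosen for their height, lie near or below 0 for Cd3e.

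Because Cd3e stands for T cells in general, Themis minus Cd3e was formed in each mouse as a log2 difference between 2 probe signals. Its level has no meaning across genes, and it was used to compare diets. Its means were -1.04 in CR, -0.55 in CR-MF, -0.30 in C and 0.53 in MF. The difference between MF and CR was 1.56 (two-sided exact permutation p = 0.0240, adjusted over the 6 pairs of groups p = 0.129), that between CR-MF and MF -1.08 (exact p = 0.0594, adjusted p = 0.129) and that between C and CR 0.74 (exact p = 0.0645, adjusted p = 0.129). The others were 0.83 for MF minus C, 0.48 for CR-MF minus CR and -0.25 for CR-MF minus C (exact permutation adjusted p = 0.152, 0.330 and 0.513).

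No pair thus passed after adjustment. The MF mouse C4_11 had the lowest value of all mice, -1.61, and the MF mouse C4_7 the highest, 1.90. Among single mice left out, C4_11 was the 1 mouse without which pairs passed. It was not flagged as an outlier of MF for this value by the rule used below. Dropping the lowest value of the higher group raises the difference by construction, so that the result with all mice stands. Without C4_11 the differences were 1.92 for MF and CR, -1.43 for CR-MF and MF and 1.18 for MF and C (exact permutation adjusted p = 0.0130, 0.0186 and 0.0186). In C4_7 Themis was at 7.22, its highest level in any mouse, while Cd3g was at 4.07 and 8 of the 33 other genes had their lowest level.

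**Figure D5:**
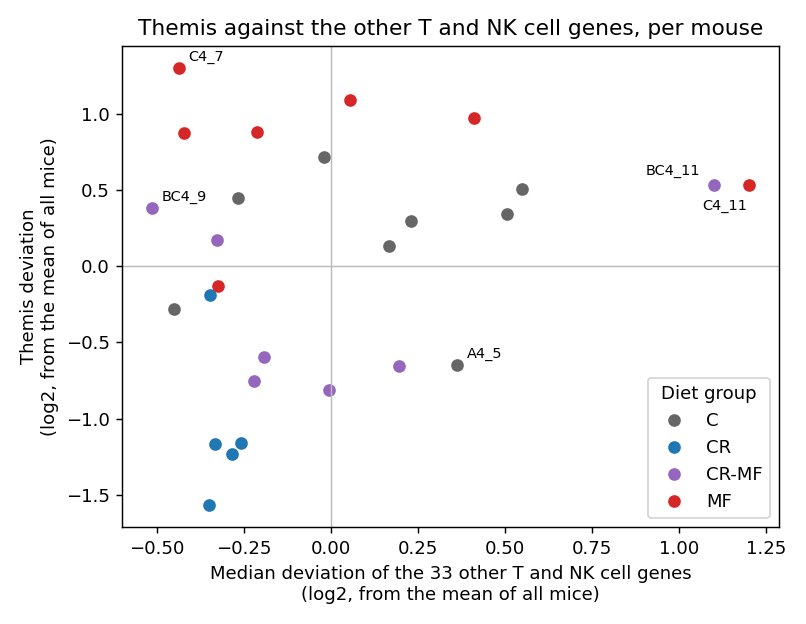
Deviation of Themis (y axis) against the median deviation of the 33 other T and NK cell genes (x axis), both in log2 units from the mean of all mice, 1 point per mouse and coloured by diet group. The CR mice lie at low values of both, 6 of the 7 MF mice lie above 0 for Themis across the whole width, and C4_11 and BC4_11 lie far to the right.

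Genes that work with Themis were examined as a further list. Of 25 genes for T cell receptor signalling partners, 23 were tested and 0 were called in any of the 6 pairs of groups; between MF and CR 5 had higher and 1 had lower means at an unadjusted limma p of 0.05, beside 23.7% of all genes in either direction, and between C and CR 8 had higher means, beside 10.5%. The median C minus CR difference over the list was 0.34. Among them, Ptpn6, which encodes the Shp1 phosphatase that Themis binds, had C minus CR and MF minus CR differences of 0.62 and 0.54 (limma adjusted p = 0.0655 and 0.0785). Vav1, an exchange factor, had 0.94 and 0.72 (adjusted p = 0.0913 and 0.163), and Grb2, the adaptor that carries Themis to the receptor complex, had 0.01 and 0.05 (adjusted p = 0.979 and 0.745). Ptpn6 and Vav1 are also expressed by other blood cells.

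Of the chemokine, cytokine and ligand genes that act on the receptors in the list, 14 of 16 were tested and 0 were called in any pair. At an unadjusted limma p of 0.05, 8 had higher means in C than in CR, beside 10.5% of all genes, and 6 in MF than in CR, beside 12.5%. Cxcl9 and Cxcl10, ligands of Cxcr3, had C minus CR differences of 1.03 and 1.14 (adjusted p = 0.158 and 0.0732), and Cxcl16, the ligand of Cxcr6, 0.63 (adjusted p = 0.112). Cd274, which encodes PD-L1, and Cd86, a ligand of CD28, had differences of 0.88 and 1.17 (adjusted p = 0.0549 and 0.0655). Of 18 further T cell genes, 12 were tested and 0 were called, with the largest C minus CR difference for Slamf6 (1.31, adjusted p = 0.0963), and of 9 further NK cell genes 3 were tested and 0 were called. The NK cell gene Ncr1, which defines these cells, and 5 others of that list did not pass the filter.

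Of the relatives and chromosomal neighbours of Themis, 6 of 7 were tested and 1, Lama2, was called in any pair. Themis2, its counterpart in B cells and macrophages, had MF minus CR and C minus CR differences of 0.55 and 0.62 (limma adjusted p = 0.176 and 0.148) and a correlation of 0.73 with Cd3e and of -0.07 with Themis. Ptprk, which lies beside Themis on chromosome 10, had -0.01 (adjusted p = 0.949) and a correlation with Themis of 0.06. Lama2, a laminin chain of the same region, was higher in MF than in CR by 0.68 (SE 0.13, adjusted p = 0.00434) and lower in CR-MF than in MF by 0.51 (SE 0.12, adjusted p = 0.0240). Its lowest, median and highest levels were 5.06, 5.24 and 5.49 in CR and 5.72, 5.90 and 6.34 in MF.

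Markers of some other liver cells moved with diet as well. Of 6 genes of recruited macrophages tested, Ccr2, Trem2 and Gpnmb were higher in MF than in CR, and Ccr2 (1.10, SE 0.27, limma adjusted p = 0.0326) and Trem2 (1.63, SE 0.39, adjusted p = 0.0311) were higher in C than in CR. Ccr2 is also found on some T cells. In CR-MF livers, Cd9 of the same list was lower than in MF livers, by 0.76 (adjusted p = 0.0327 by limma). Of 6 stellate cell genes, Pdgfrb, a growth factor receptor, was higher in MF than in CR by 0.65 (limma adjusted p = 0.0195) and Colec11, a lectin, was lower in CR-MF than in MF by 0.51 (adjusted p = 0.0338). Of 4 cholangiocyte genes, Epcam, an epithelial adhesion molecule, was lower in CR-MF than in MF by 0.78 (limma adjusted p = 0.0216). The summed linear intensity of the 6 recruited macrophage markers ranged from 1585 to 1831 in CR, 1536 to 5394 in CR-MF, 1693 to 6348 in C and 2266 to 4046 in MF. Of these 6 markers, 0 were below the filter level on average. Of 9 B and plasma cell genes and 8 Kupffer cell genes tested, 0 were called in any pair, with 2 and 3 B and plasma cell genes and 1 and 5 Kupffer cell genes higher at an unadjusted limma p of 0.05 in MF and in C against CR, beside 12.5% and 10.5% of all genes. The MF mean was above the CR mean for 6 of the 8 Kupffer cell genes, with a median difference of 0.32. Marco, a scavenger receptor, ran the other way, with an MF minus CR difference of -1.60 (SE 0.49, limma adjusted p = 0.0542). It was the 1 Kupffer cell gene lower in MF at an unadjusted limma p of 0.05. Of 7 neutrophil genes tested, 0 were called in any pair. All 7 had higher means in MF than in CR, 4 of them at an unadjusted limma p of 0.05, beside 12.5% of all genes. At that threshold 0 of them were higher in C than in CR, beside 10.5%. The part of these cells in the Themis differences was not tested.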

How the data were processed

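Liver RNA of 27 mice was hybridised by the authors to Affymetrix Mouse Gene 1.1 ST arrays. The authors deposited RMA (Robust Multiarray Average) log2 intensities, 1 for each transcript cluster and array, per the labels. The paper describes probe sets by Entrez ID, while the table holds transcript clusters. These were named from the platform annotation, which can be old, and only where they carried 1 symbol. Precision is limited by signal over background and by the number of arrays.

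Genes were tested if 5 or more arrays had an intensity over 20 (4.32 on the log2 scale) and the interquartile range exceeded 0.1. Group means were compared over all arrays with limma 3.58.1 in R 4.3.3 (lmFit, then eBayes with trend on intensity and 23 residual df), with Benjamini-Hochberg adjustment over 13993 genes and a threshold of 0.05. The fits were tested on simulated data. Themis minus Cd3e was compared by two-sided exact permutation tests. Groups came from the diet labels. The genes and the further lists were chosen with earlier results of these data known. All 34 genes tested are named, with the 8 genes most correlated with Themis and with Cd3e, and genes of the further lists that were called, are background partners or lead a list; those last were picked after their values were seen. Alternatives were other scalings, filters, variance models and groups in the fit, plate, well row and animal number as blocks, plate G150 alone, and leaving out mice. The mice C4_11 and BC4_11 were left out together after seeing the data. The listed mouse ID A4_9 is used for an array whose title ends in A4_9_2.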

Additional observations from a re-analysis of the deposited data

Results flagged for a closer look

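In 76 sets of values (a gene or Themis minus Cd3e in 1 diet group), 9 had a mouse at one end whose gap to the nearest other mouse, as a share of the range of the group, was larger than Dixon's critical value, where chance alone gives about 1 in 20. The sets share mice and the genes vary together.

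In MF the mouse C4_11 stood apart as the highest for Cd3d (gap 0.589 of the range), Cd28 (0.786) and Tigit (0.790, at 8.96 against 6.74 for the next mouse). In CR-MF the mouse BC4_11 stood apart as the highest for Cd8a (0.859, at 7.99 against 5.94) and Ccl5 (0.580, at 10.1 against 8.26). The others were single genes: Klrd1 in the MF mouse C4_5 (0.570, highest), Tox in the C mouse A4_9 (0.539, highest) and Il7r in the CR mouse B4_5 (0.733, lowest). The same CR mouse B4_5 was the highest of its group for Themis minus Cd3e (0.775, at -0.14 against -1.12).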

How the results depend on the processing

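Genes other than Themis were followed in the MF minus CR and C minus CR pairs. They were those with the highest mean or the smallest unadjusted limma p among the CD3 chains, the coreceptors and each other kind of gene in the list. Of 456 values under the alternatives, 450 kept their direction and side of the threshold, as did 912 of 918 with 1 mouse left out. None of these genes was called in the main fit, so that keeping the side of the threshold meant staying uncalled. The Themis difference between MF and CR was called under every alternative that tested Themis (1.59 to 2.16), with a highest limma adjusted p of 0.0453. This difference was also called without any single mouse (1.72 to 2.07). The Themis difference between CR-MF and MF was not called, and the count of genes called in that pair was 0, in the fit on the 2 groups (-1.04), on plate G150 alone (-1.22) and with the animal number as replicate block (-1.01), with adjusted p = 0.0793, 0.0587 and 0.0911 by limma. That between C and CR was not called on plate G150 alone (1.07), with well row as a block (1.05) and with the replicate block (1.14), with limma adjusted p = 0.119, 0.115 and 0.108, and the count was then 0. The count between C and CR was 3 in the fit on these 2 groups (Cd27, Themis, Klrd1) and 3 without C4_11 and BC4_11 (Cd27, Themis, Ccl5). The share of all genes called in these 2 fits was not counted, so that the rise cannot be read as particular to these genes. With 1 mouse left out, it was 0 to 1, that between CR-MF and MF was 0 to 1, and the Themis differences were 1.13 to 1.47 and -1.19 to -0.94. Deviations of mice from different groups correlated above 0.1 in 13 of 27 pairs with the same animal number (median r 0.0942) and in 66 of 244 pairs with different numbers (median -0.0235). Same-numbered pairs thus passed 0.1 more often, and what such mice share was not tested. The main fit did not use the animal numbers, and the 2 Themis calls lost with them as a block are given above. The MF minus CR difference changed sign for Cd3e (-0.042) and Cd8a (-0.086) with the replicate block, for Klrd1 on plate G150 alone (-0.020) and for Cd3e without C4_11 and BC4_11 (-0.025). With 1 mouse left out it ranged from -0.025 to 0.43 for Cd3e, -0.34 to 0.068 for Il2rb and -0.17 to 0.012 for Klrk1. For Themis minus Cd3e, Cd3d in place of Cd3e, which is no check of it because Cd3d was above 4.32 in 0 of 5 CR and 2 of 7 MF mice, gave 1.47 (MF minus CR), -1.11 (CR-MF minus MF), 0.77 (C minus CR) and 0.70 (MF minus C), the fit without C4_11 and BC4_11 gave 1.92, -1.33 and 1.18 (MF minus CR, CR-MF minus MF, MF minus C), and leaving out 1 mouse gave 1.33 to 1.92, -1.43 to -0.85 and 0.60 to 1.18, so that pairs passed the threshold that had not before. Other scalings left the median difference over all genes between -0.0333 and 0.0198 in each pair, and CR had the lowest mean for 29 and 30 of 34 genes after quantile normalization and median centring. Lck in place of Cd3e was not run, as Lck has no single-symbol cluster. Except for what the alternatives show by construction, the cause was not tested.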
